A study of Mus musculus with 12 samples.

Results

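The 10 genes described here are products by which mast cells and eosinophils are recognised, and they were chosen by symbol: Mcpt1, Mcpt2, Mcpt4, Cpa3, Tpsb2, Kit, Fcer1a, Ms4a2, Epx and Prg2. They are 10 of the 53801 genes of the count table. All 10 are among the 32689 genes of the normalized colon table, and 7 are among the 25514 genes of the normalized blood table, from which Mcpt1, Mcpt4 and Tpsb2 are absent. Total RNA was sequenced from the colon and the whole blood of male C57BL/6 mice, 8 weeks old per the methods, in an acute model of ulcerative colitis (UC). UC mice drank dextran sulfate sodium (DSS), a sugar polymer that injures the gut lining, at 1.5% for 7 days. Control mice drank water without it, and every mouse was killed on day 8. The 12 libraries form 4 labelled groups of 3: UC colon and UC blood from mice 1, 2 and 4, and control colon and control blood from mice 7, 8 and 9. Per the methods, the mice were picked for sequencing from a larger cohort by their disease activity, and the colon and the blood came from the same animals. The groups therefore stand for mice selected within their arm.

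Mast cells are tissue-resident cells of the immune system whose granules are packed with proteases, heparin and histamine. Mouse mast cells come in a mucosal form, which makes the chymases Mcpt1 and Mcpt2, and a connective tissue form, which makes the chymase Mcpt4 and the tryptase Tpsb2. The carboxypeptidase Cpa3 is a general enzyme of their granules, which basophils can also express. Both forms need the receptor Kit, and both are armed by the high-affinity receptor for immunoglobulin E, of which Fcer1a is the binding chain and Ms4a2 the signal-amplifying beta chain. Basophils are their circulating relatives and carry the same immunoglobulin E receptor. Eosinophils are granulocytes whose granules hold the eosinophil peroxidase Epx and the major basic protein Prg2. They enter the gut along gradients of eotaxins and depend on interleukin 5.

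A few facts of the series touch every value below. A colon library held between 69181049 and 103662306 counts, and a blood library between 80867247 and 142536804. The 7SL RNA genes held from 35.9% to 65.4% of the counts of a blood library and from 4.90% to 6.50% of a colon library. The labels name the tissue in conflicting fields, and the groups follow the tissue characteristic, with which the markers matched: Krt8, an epithelial keratin, had at least 303492 normalized counts in each colon library and at most 75.3 in each blood library. The inflammation gene S100a8 went against the disease labels. Its colon values were 5370, 33.1 and 22.3 normalized counts in mice 1, 2 and 4, labelled UC, and 1888, 75.6 and 13337 in mice 7, 8 and 9, labelled control. In blood, too, its 3 highest values were in mice 9, 1 and 7. For this reason libraries are called "labelled UC" and "labelled control" throughout, and the sign of every log2FC between them is a direction of the deposited labels, which need not be that of treated over untreated mice. Bulk RNA cannot tell fewer cells of a type from less RNA per cell.

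The chymase genes lie side by side on chromosome 14 (GRCm38, GENCODE vM21). Mcpt1 occupies positions 56017971 to 56020384 on the plus strand, Mcpt2 positions 56042041 to 56044642 on the plus strand, and Mcpt4 positions 56059629 to 56062313 on the minus strand. Cpa3 lies on chromosome 3, from 20215620 to 20242181. Tpsb2 lies on chromosome 17, from 25366305 to 25369098, and Kit on chromosome 5, from 75574916 to 75656722. Fcer1a lies on chromosome 1, from 173221284 to 173227214, and Ms4a2 on chromosome 19, from 11615523 to 11623719. Epx lies on chromosome 11, from 87864000 to 87875536, and Prg2 on chromosome 2, from 84980461 to 84983632. All 10 are protein-coding, and the values are sums over their exons. Because the chymases are close relatives, the transcripts were searched for shared words of 50 bases. Of the words in Mcpt4, 5.48% also occurred in Cma2 or Mcpt9, and of those in Ms4a2, 2.10% occurred in Ms4a4b. The other 8 genes shared none with any gene.

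Promoters are shown for Mcpt1 and Mcpt4, which flank Mcpt2 and whose values parted in the colon, and for Cpa3, which followed Mcpt1. Those of the immunoglobulin E receptor chains Fcer1a and Ms4a2, whose values ran in parallel across the blood libraries, are shown too. Each is the 250 bases before the start of the gene in RefSeq (GRCm38.p6), read 5′ to 3′ on the gene's own strand. Capitals mark the letters AGATAA or TGATAA on either strand, the core read by the GATA family of transcription factors.
Mcpt1, chr14:56017714-56017963, plus strand: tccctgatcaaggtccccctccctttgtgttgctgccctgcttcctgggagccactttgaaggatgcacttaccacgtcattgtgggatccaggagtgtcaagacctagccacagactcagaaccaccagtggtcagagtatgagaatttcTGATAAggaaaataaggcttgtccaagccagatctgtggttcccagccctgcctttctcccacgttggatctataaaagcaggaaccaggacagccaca
Mcpt4, chr14:56062311-56062560, minus strand: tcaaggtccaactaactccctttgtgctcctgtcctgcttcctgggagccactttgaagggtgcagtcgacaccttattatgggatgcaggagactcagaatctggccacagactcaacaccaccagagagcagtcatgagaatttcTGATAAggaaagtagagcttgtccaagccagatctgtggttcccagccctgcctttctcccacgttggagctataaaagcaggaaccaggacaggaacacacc
Cpa3, chr3:20242182-20242431, minus strand: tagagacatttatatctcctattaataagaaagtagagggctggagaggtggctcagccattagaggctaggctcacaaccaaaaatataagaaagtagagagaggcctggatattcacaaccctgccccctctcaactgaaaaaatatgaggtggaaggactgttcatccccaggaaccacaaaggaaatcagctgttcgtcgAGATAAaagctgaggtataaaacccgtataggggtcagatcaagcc
Fcer1a, chr1:173227230-173227479, minus strand: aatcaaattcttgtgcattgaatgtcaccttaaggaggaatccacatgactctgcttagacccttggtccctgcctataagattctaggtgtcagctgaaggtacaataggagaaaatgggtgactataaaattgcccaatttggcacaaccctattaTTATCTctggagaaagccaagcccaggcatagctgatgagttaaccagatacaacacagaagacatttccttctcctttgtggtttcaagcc
Ms4a2, chr19:11623720-11623969, minus strand: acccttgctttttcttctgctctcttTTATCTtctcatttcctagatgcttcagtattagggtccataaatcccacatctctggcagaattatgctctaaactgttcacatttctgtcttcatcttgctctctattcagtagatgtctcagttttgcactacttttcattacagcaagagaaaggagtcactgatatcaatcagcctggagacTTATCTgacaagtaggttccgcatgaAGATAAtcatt

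RefSeq promoters were at hand for 7 of the 10 members. At least 1 match was present in the 5 shown and in neither Kit nor Epx, whose windows are not printed. The windows shown are thus those with a match. Of 32851 mouse promoter windows of the same length, 16.6% held one. Ms4a2 had 3 matches. The Mcpt1 and Mcpt4 windows were identical at 209 of 242 aligned bases (86.4%), and in both the match was TGATAA, starting 99 and 103 bases before the start. A match describes letters and does not show that a factor binds there.

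The first question was how much of each gene the colon contained. Values are normalized counts, the deposited scale on which libraries of one tissue can be compared. The mucosal chymase Mcpt1 had 37.9, 13.9 and 30.5 normalized counts in mice 1, 2 and 4, labelled UC. In mice 7, 8 and 9, labelled control, it had 179.6, 3.78 and 958.3. Mouse 9 alone stood far above the rest, 5.34-fold over the next library, and mouse 8 of the same labelled group was the lowest of all 6. Mcpt2, the second mucosal chymase, had 97.6, 8.71 and 36.3 normalized counts in mice 1, 2 and 4 and 146.7, 7.56 and 696.5 in mice 7, 8 and 9. The order of the mice was the same for both genes: 9, 7, 1, 4, 2 and 8. Cpa3, the granule carboxypeptidase, had 22.7, 9.58 and 24.7 normalized counts in the first group and 46.8, 7.56 and 113.4 in the second. It too was highest in mice 9 and 7 and lowest in mice 2 and 8, and in each of these genes the labelled groups overlapped.

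The connective tissue proteases did not follow. Mcpt4 had 14.2, 9.58 and 21.4 normalized counts in mice 1, 2 and 4 and 41.7, 10.1 and 0 in mice 7, 8 and 9. Mouse 9, the highest library for Mcpt1, Mcpt2 and Cpa3, was the one library without an Mcpt4 count. Tpsb2, a tryptase, had 28.4, 13.9 and 9.07 normalized counts in the first group and 17.7, 25.2 and 17.1 in the second. These 6 values lay within 3.13-fold of one another, against 15.0-fold for Cpa3.

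**Figure D1:**
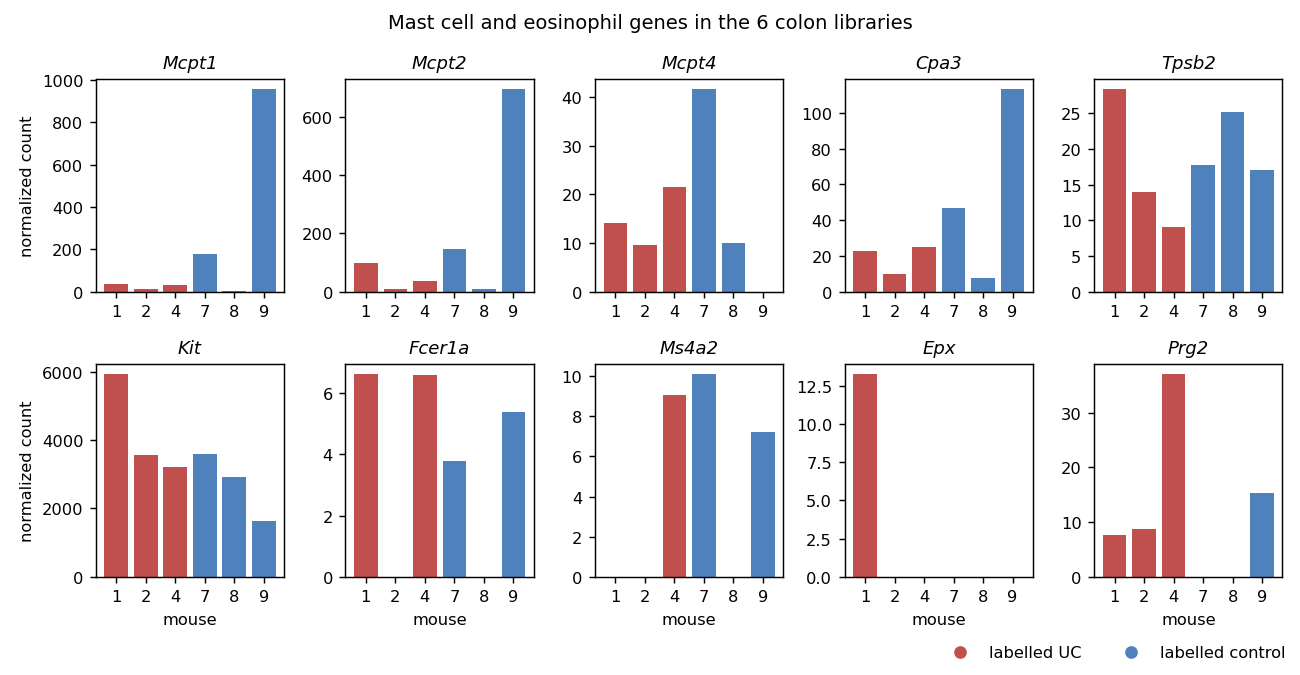
Normalized counts (y axis, from 0, a separate scale for each gene) of the 10 genes in the 6 colon libraries, by mouse number (x axis), with red bars for mice labelled UC and blue bars for mice labelled control. Mcpt1, Mcpt2 and Cpa3 peak in mouse 9, where Mcpt4 has no counts, and Epx is present in mouse 1 alone.

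Per kilobase of exon, Kit had the highest level of the members in every colon library but that of mouse 9. It had 5939, 3557 and 3210 normalized counts in mice 1, 2 and 4 and 3593, 2921 and 1630 in mice 7, 8 and 9. Its highest value was in mouse 1 and its lowest in mouse 9. Kit also marks the interstitial cells of Cajal, the pacemakers of gut muscle, and their channel Ano1 and transcription factor Etv1 were read beside it. Etv1 ranged from 381 to 726 normalized counts and was highest in mouse 1, like Kit. Ano1, which epithelium can also express, ranged from 3047 in mouse 1 to 32554 in mouse 8. Smooth muscle genes (5 of 5 present) summed to between 213738 and 496097 normalized counts in mice 1, 2 and 4 and between 119076 and 337356 in mice 7, 8 and 9, with the lowest sum in mouse 9. How much of the Kit signal came from mast cells was not tested.

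The remaining members were close to the limit of counting in the colon. Fcer1a had at most 8 counts in any colon library and Ms4a2 at most 11. Fcer1a was at 0 in mice 2 and 8, and Ms4a2 was at 0 in mice 1, 2 and 8. The eosinophil gene Prg2 had 7.58, 8.71 and 37.1 normalized counts in mice 1, 2 and 4 and 0, 0 and 15.3 in mice 7, 8 and 9. Epx was counted in mouse 1 alone, at 13.3 normalized counts, or 14 counts. The deposited counts derive from transcript coverage, and a value of 3 was more frequent in the table (13395 values) than 1 (10152) or 2 (7177), so that 1 sequenced fragment can stand as about 3 counts. The smallest of these values therefore rest on a few fragments each.

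Genes were compared with each other only per kilobase of exon. In the colon, the median level over the 6 libraries was 379.7 normalized counts per kilobase for Kit, 63.1 for Mcpt2, 33.7 for Mcpt1, 15.6 for Cpa3, 11.0 for Mcpt4 and 10.9 for Tpsb2. Prg2 followed at 9.72, Fcer1a at 4.61, Ms4a2 at 1.28 and Epx at 0. Neighbours in this order overlapped in their ranges over the libraries. The order was not the same in every mouse: in mouse 9, Mcpt1 reached 945 normalized counts per kilobase, while Kit had its lowest level, 182.9.

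The comparison of UC with control colon asked whether the members differ with the disease label. The study's rule for a significantly differentially expressed (SDE) gene was applied: an adjusted p of at most 0.05 and an absolute log2 fold change (log2FC) over 1. Of the 10 members, 6 passed the filter on low counts and 0 were SDE, where 0.0045% of all 22238 genes tested were. None of the 6 had labelled groups that did not overlap, against 5.41% of all genes. The lowest p was that of Mcpt1, which had a log2FC of -3.78 (SE 1.55, approximate 95% interval -6.82 to -0.75). Its unadjusted p was 0.0471 and its adjusted p was 0.9999 by edgeR's quasi-likelihood test, with Benjamini-Hochberg adjustment over all genes. At an unadjusted p under 0.05 stood 1 of the 6 members and 1.41% of all genes. DESeq2 and limma-voom each called 0 members.

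**Figure D2:**
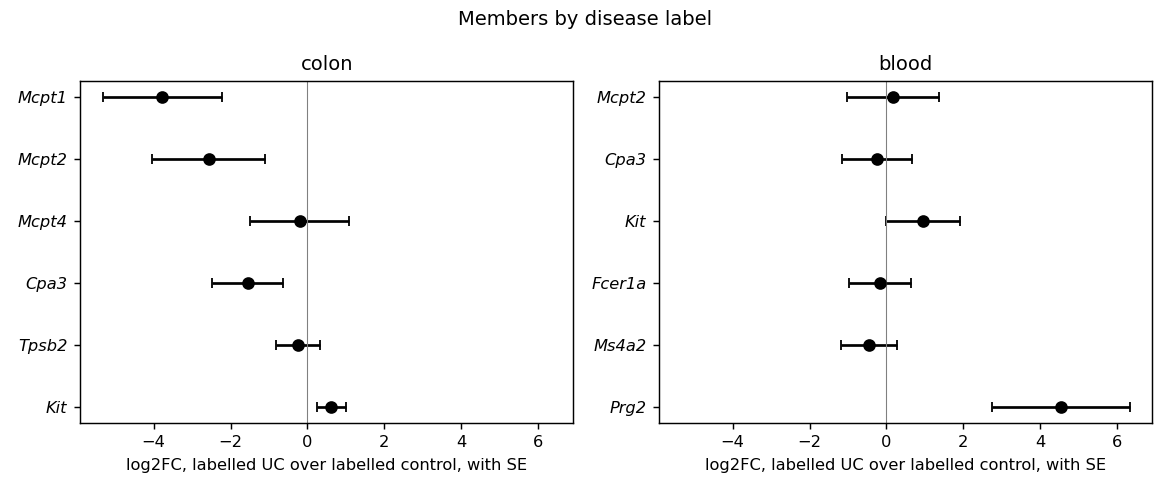
Log2FC of libraries labelled UC over those labelled control (x axis), with SE as bars, for the 6 members tested in the colon (left) and the 6 tested in the blood (right), n = 3 per group. In the colon Mcpt1 lies at -3.78 and Kit at 0.62. In the blood Prg2 lies at 4.55, and no member passed the adjusted threshold in either tissue.

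The log2FC of Mcpt2 was -2.57 (SE 1.47) and that of Cpa3 was -1.56 (SE 0.920). Both depended on mouse 9. Without it, the log2FC fell in size to -1.77 for Mcpt1, -0.74 for Mcpt2 and -0.55 for Cpa3. Kit had a log2FC of 0.62 (SE 0.372, interval -0.11 to 1.35). Mcpt4 stood at -0.20 (SE 1.28) and Tpsb2 at -0.24 (SE 0.573), intervals that run from -2.72 to 2.32 and from -1.36 to 0.88 and so leave room for large differences in either direction. The median log2FC of the 6 members was -0.90, beside -0.01 over all genes tested.

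The same genes were then read in whole blood, where mature mast cells are not normally found and basophils and eosinophils circulate. Mcpt1, Mcpt4 and Tpsb2 had 0 counts in all 6 blood libraries. The immunoglobulin E receptor chains had counts in every one. Fcer1a had 6.32, 9.03 and 46.6 normalized counts in mice 1, 2 and 4, labelled UC, and 25.3, 18.4 and 27.3 in mice 7, 8 and 9, labelled control. Ms4a2 had 16.8, 21.1 and 110.5 in the first group and 49.8, 62.0 and 96.0 in the second. Both chains were highest in mouse 4, next highest in mouse 9, and lowest in mice 1 and 2. The ratio of Ms4a2 to Fcer1a counts lay between 1.97 and 3.52 in the 6 libraries. In mice 1 and 2, however, Fcer1a had 6 counts each, so the ratio there rests on a few fragments.

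Cpa3 had 15.8, 1.51 and 44.2 normalized counts in the blood of mice 1, 2 and 4 and 23.7, 21.8 and 29.0 in that of mice 7, 8 and 9. Mouse 4 was again the highest, and the value of mouse 2 was 1 count. Of the basophil genes, the surface receptor Cd200r3 was also highest in mouse 4, at 162.0 normalized counts, with the other 5 libraries between 42.1 and 98.8. The others did not share that peak. The basophil protease Mcpt8 had 4.09 normalized counts in mouse 4 and its highest value, 27.6, in mouse 8. The transcription factor Gata2 had 31.9 in mouse 4 and its highest value, 94.8, in mouse 1. Mcpt2 had 12.6, 27.1 and 0 normalized counts in mice 1, 2 and 4 and 14.5, 11.5 and 8.27 in mice 7, 8 and 9.

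**Figure D3:**
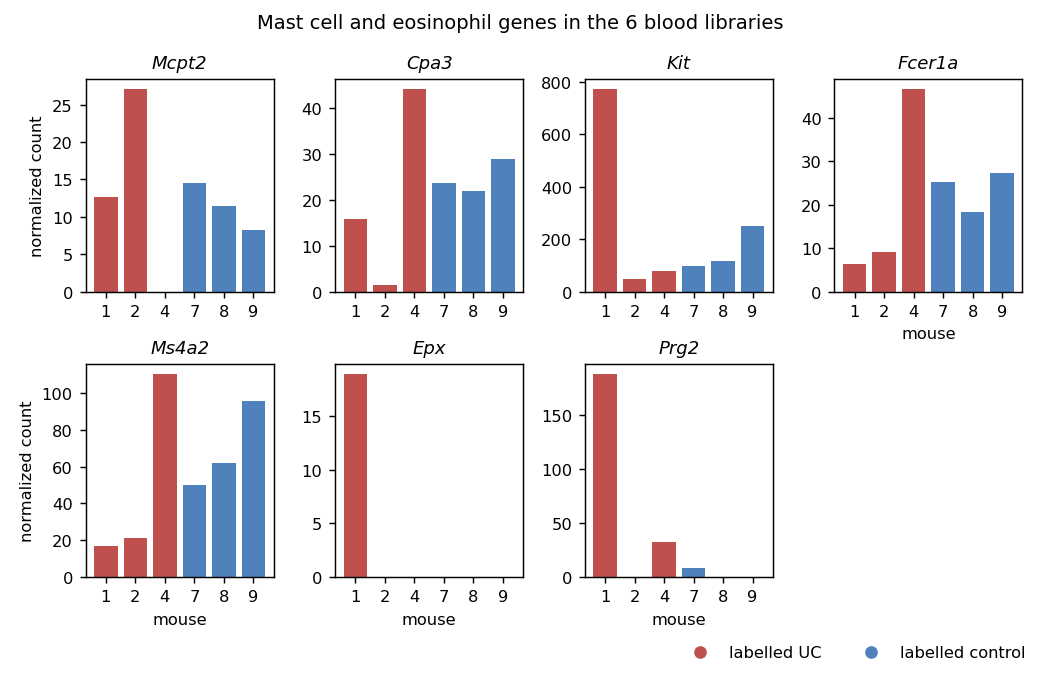
Normalized counts (y axis, from 0, a separate scale for each gene) of the 7 members present in the blood table, by mouse number (x axis), with red bars for mice labelled UC and blue bars for mice labelled control. Fcer1a, Ms4a2 and Cpa3 peak in mouse 4, and Kit, Prg2 and Epx peak in mouse 1.

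A second set of genes peaked in another animal. Kit had 772.9, 46.7 and 80.2 normalized counts in the blood of mice 1, 2 and 4 and 96.5, 118.3 and 249.0 in that of mice 7, 8 and 9. Mouse 1 exceeded the next library 3.10-fold. Prg2 had 188.5, 0 and 32.7 normalized counts in mice 1, 2 and 4 and 8.42, 0 and 0 in mice 7, 8 and 9, and Epx was present in mouse 1 alone, at 19.0. Other granule genes of developing granulocytes had their highest blood value in the same library. Camp reached 631.8 normalized counts in mouse 1 and at most 69.7 elsewhere, and Ngp reached 2019 and at most 124.1 elsewhere. The peak was not confined to such genes. Other neutrophil genes, S100a9 (257975), Cxcr2 (15319) and Ly6g (2680), were also highest in mouse 1, followed by mouse 9. S100a8 was highest in mouse 9. The progenitor genes did not peak there together. Flt3 had 430.7 normalized counts in mouse 1 and at most 125.2 elsewhere, while Gata2 had 94.8 there and 91.0 in mouse 9. Meis1 was lowest in mouse 1, at 80.0, and Cd34 was highest in mouse 7, at 38.3. The part of other cell types in the Kit and Prg2 values was not tested.

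The other eosinophil genes were divided in blood. Ccr3, the eotaxin receptor, was lowest in mouse 1, at 40.0 normalized counts, and highest in mouse 2, at 841.4. Il5ra, the interleukin 5 receptor, ran from 154.8 in mouse 1 to 492.2 in mouse 2. The ribonuclease Ear2 lay between 256.5 and 474.0 in all 6 libraries. Alox15, a lipoxygenase, was highest in mouse 1, at 632.9, with 403.4 in the next library, and the scarce granule genes Prg3, Ear1 and Ear6 also had their highest values there, at 14.7, 22.1 and 24.2. Siglecf had 99.0 in mouse 1, within its range of 51.2 to 124.1. The library with the most Prg2 and Epx thus had the least Ccr3 and Il5ra and the most Alox15.

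For UC against control blood, 6 members passed the filter and 0 were SDE, as were 0% of all 16759 genes tested. No member had labelled groups that did not overlap, against 6.50% of all genes. The lowest unadjusted p, 0.0351, was that of Prg2, with a log2FC of 4.55 (SE 1.79) and an adjusted p of 0.9998 by edgeR. It was the 1 member with an unadjusted p under 0.05, beside 1.44% of all genes, and 2 of its 3 libraries labelled control were at 0. DESeq2 and limma-voom called 0 members here too. Without mouse 1 the log2FC of Prg2 was 2.47, and without mouse 7, which leaves its labelled control group at 0, the fitted value is no bound and is not read. Kit had a log2FC of 0.95 (SE 0.953), which became -1.26 without mouse 1. Fcer1a stood at -0.17 (SE 0.809), Ms4a2 at -0.46 (SE 0.725), Cpa3 at -0.24 (SE 0.901) and Mcpt2 at 0.16 (SE 1.20). Per kilobase of exon, the median blood level was 21.9 normalized counts for Fcer1a, 19.9 for Ms4a2, 15.0 for Cpa3, 12.1 for Kit, 11.4 for Mcpt2 and 5.03 for Prg2, and Epx had a median of 0. Neighbours in this order overlapped as well.

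Next, the tissues were set against each other in one fit of all 12 libraries. Here the values are CPM, counts relative to the size of a library scaled by TMM (trimmed mean of M values), since the deposited normalization differs between the tissues. Of the 9 members tested (all but Epx), 6 were SDE, where 58.5% of 23258 genes were, and 4 had tissues that did not overlap, where 53.5% of genes did. Of the 6, Mcpt1, Mcpt4, Tpsb2 and Kit were higher in the colon (37.7% of all genes were) and Fcer1a and Ms4a2 were higher in the blood (20.8% of all genes). All but Kit could pass the filter only through the tissue in which they were high, so their number says nothing of the members as a group. For the same reason, the adjusted p-values of those genes given below are no support separate from the counts.

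Mcpt1 had between 0.0212 and 5.31 CPM per colon library and no count in blood (adjusted p = 0.00518 by edgeR). Set against a floor of 8 counts over the 6 blood libraries together, which is about 3 fragments, its summed colon level was at least 50.5-fold higher. Mouse 9 gave 1065 of the 1303 colon counts, and without that mouse the bound was 9.07-fold. Mouse 8 had 3 colon counts, under the floor. The same bound was at least 4.26-fold for Tpsb2 (adjusted p = 0.000638) and at least 3.60-fold for Mcpt4 (adjusted p = 0.0162). The Mcpt4 bound was 2.11-fold without mouse 7. Mcpt4 was also at 0 in 1 colon library, and without mouse 4 its adjusted p was 0.0503.

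**Figure D4:**
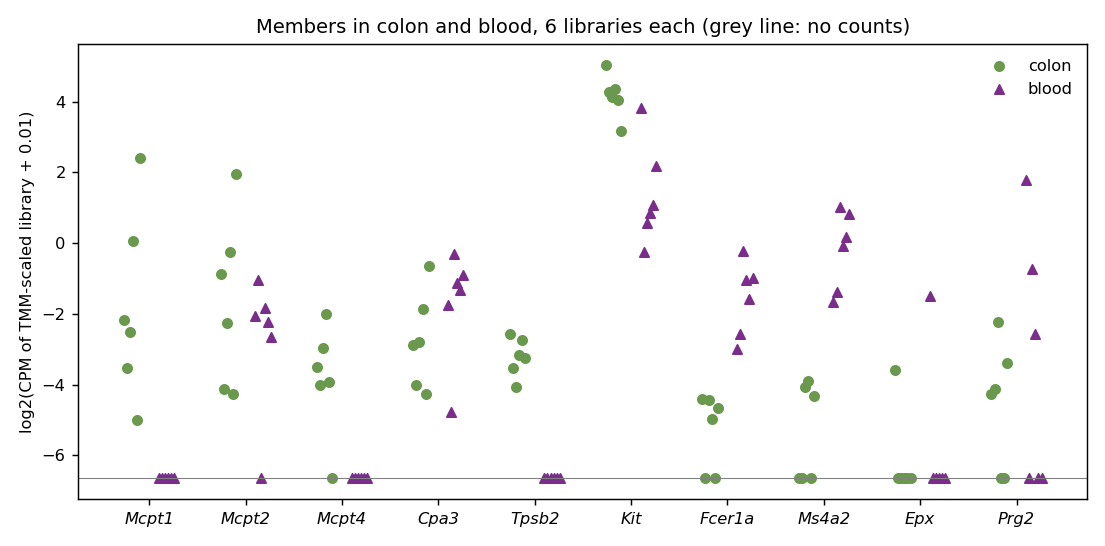
Level of the 10 members in each library, as log2(CPM of the TMM-scaled library + 0.01) on the y axis, with green circles for the 6 colon libraries and purple triangles for the 6 blood libraries. The grey line marks libraries without a count: all 6 blood libraries of Mcpt1, Mcpt4 and Tpsb2 lie on it. Fcer1a and Ms4a2 lie higher in blood, while Cpa3 and Mcpt2 overlap between the tissues.

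Kit ranged from 9.03 to 32.9 CPM across colon libraries, with a median of 18.5, and from 0.823 to 14.1 across blood libraries, with a median of 1.96. Colon exceeded blood in 6 of 6 mice, although the blood of mouse 1 overlapped the colon range. Its log2FC of colon over blood was 2.26 (SE 0.625, adjusted p = 0.00718). Ms4a2 had at most 0.0577 CPM in the colon and at least 0.308 in the blood, a log2FC of -5.44 (SE 1.01, adjusted p = 0.000573). Fcer1a had at most 0.0368 CPM in the colon and at least 0.116 in the blood, a log2FC of -4.22 (SE 0.866, adjusted p = 0.00114). The receptor chains were thus higher in blood in 6 of 6 mice each, although blood Fcer1a was at 6 counts in mice 1 and 2. The chymase Mcpt1 and the tryptase Tpsb2 had a count in the colon and none in the blood of 6 of 6 mice. With colon counts as low as 3, this does not rank the tissues within a single mouse. Only the summed bounds above are read for these 2 genes.

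Cpa3 and Mcpt2 were present in both tissues and were not called. Cpa3 had a median colon level of 0.131 CPM against 0.417 in blood, was higher in the blood of 4 mice, and had a log2FC of -1.19 (SE 0.705, adjusted p = 0.152). Mcpt2 had a median colon level of 0.369 CPM against 0.218 in blood, was higher in the colon of 4 mice, and had a log2FC of 1.56 (SE 1.01, adjusted p = 0.191). Prg2 had a log2FC of -2.31 (SE 1.32, adjusted p = 0.138). Epx was counted in both tissues of mouse 1 and nowhere else, with 14 counts in colon and 18 in blood.

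These differences depend on the scale. The median log2FC of all genes was 0.46 with TMM and 2.57 when libraries were scaled by their size alone, where the blood libraries carry their large 7SL share. On that scale Mcpt2 was called (log2FC 3.74, adjusted p = 0.00474) and Cpa3 turned to 0.91. Relative to the median of all genes, Kit was 1.80 higher in the colon with TMM and 1.83 with library size, and Mcpt2 was 1.10 and 1.17 higher. Cpa3 stood at -1.65 and -1.66 relative to that median, Fcer1a at -4.68 and -4.78, and Ms4a2 at -5.90 and -5.99.

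An interaction test over 9 members asked whether the difference between labels was itself different in colon and blood. None passed an adjusted p of 0.05, where 0.0043% of all genes did, and none had an unadjusted p under 0.05, where 3.41% of all genes did (edgeR). DESeq2 and limma-voom also called 0. The difference of log2FC, colon minus blood, was -2.71 (SE 2.03) for Mcpt2, -1.33 (SE 1.40) for Cpa3, -0.35 (SE 1.20) for Kit, 0.61 (SE 1.59) for Fcer1a, -0.43 (SE 1.68) for Ms4a2 and -2.93 (SE 2.61) for Prg2. Mcpt1, Mcpt4 and Tpsb2 are among the 9 but have no blood counts to compare, so for them the test could give no call.

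Other genes of mast cells were read to place the members. In the colon, Il1rl1, the receptor for the alarmin interleukin 33, had 782.4, 134.1 and 86.6 normalized counts in mice 1, 2 and 4 and 1203, 71.8 and 5595 in mice 7, 8 and 9. Hdc, which makes histamine, had 727.4, 34.0 and 14.8 in the first group and 561.5, 26.5 and 2415 in the second. Srgn, the proteoglycan core of the granule, ranged from 425.8 in mouse 2 to 5706 in mouse 9. Fcer1g, the signalling chain of immunoglobulin receptors, ranged from 233.2 in mouse 8 to 1766 in mouse 9. These 4 genes were highest in mouse 9, as Mcpt1, Mcpt2 and Cpa3 were, and had mice 9, 7 and 1 as their top 3. Other abundant genes of the same lists had other orders. The tryptase Tpsg1 was lowest in mouse 9, at 518.3 normalized counts, and highest in mouse 7, at 2185. Cd63, a granule membrane protein, was also lowest in mouse 9, at 8412, and highest in mouse 7, at 13352. Ndst2, an enzyme of heparin synthesis, was highest in mouse 2, at 1638, and had 936.7 in mouse 9. None of the 4 genes is confined to mast cells: Hdc and Srgn had up to 17673 and 23831 normalized counts in blood, in which Mcpt1 was at 0.

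The remaining mast cell markers were few. Cma1, a connective tissue chymase, had between 63.5 and 224.7 normalized counts in the colon, highest in mouse 2, and between 22.1 and 69.2 in the blood. Its log2FC of colon over blood was -0.40 (SE 0.395, adjusted p = 0.380). Tpsab1, Cma2, Mcpt9 and Ctsg had at most 3 counts in any colon library, and the mast cell receptors Mrgprb1 and Mrgprb2 at most 14 and 6. Of the 7 receptor genes and 5 protease and granule genes tested in the colon, 0 were SDE between the labels. The share of all genes was 0.0045%.

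Signals that call in or feed these cells were present in the colon. Kitl, the ligand of Kit, ranged from 5530 to 8404 normalized counts. Il33 had 3479, 502.5 and 392.6 in mice 1, 2 and 4 and 4389, 277.3 and 3572 in mice 7, 8 and 9. The eotaxin Ccl11 had 829.7, 286.5 and 378.6 in the first group and 1258, 355.5 and 2194 in the second, with its highest values in mice 9, 7 and 1. Ccl24, the other eotaxin, ranged from 36.0 in mouse 9 to 174.3 in mouse 1, so the eotaxins differed in their order. Tslp ranged from 7.20 to 65.5 and was lowest in mouse 9. Il3, Il9 and Il13 had 0 counts in every library.

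Among eosinophil genes of the colon, Il5ra had 2664, 9.58 and 23.1 normalized counts in mice 1, 2 and 4 and 1848, 0 and 2159 in mice 7, 8 and 9. Siglecf, an eosinophil lectin that other cells of the gut also make, had 216.0, 13.9 and 74.2 in the first group and 216.2, 58.0 and 141.3 in the second. Alox15 ranged from 77.1 to 331.5. Prg3 and Ear1 had 0 counts in all 6 colon libraries. Of 5 eosinophil genes tested, 0 were SDE between the labels in either tissue. In blood, Alox15 had the one unadjusted p under 0.05 of this list, 0.0137, with a log2FC of 1.75 (SE 0.555) and an adjusted p of 0.9998 by edgeR.

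**Figure D5:**
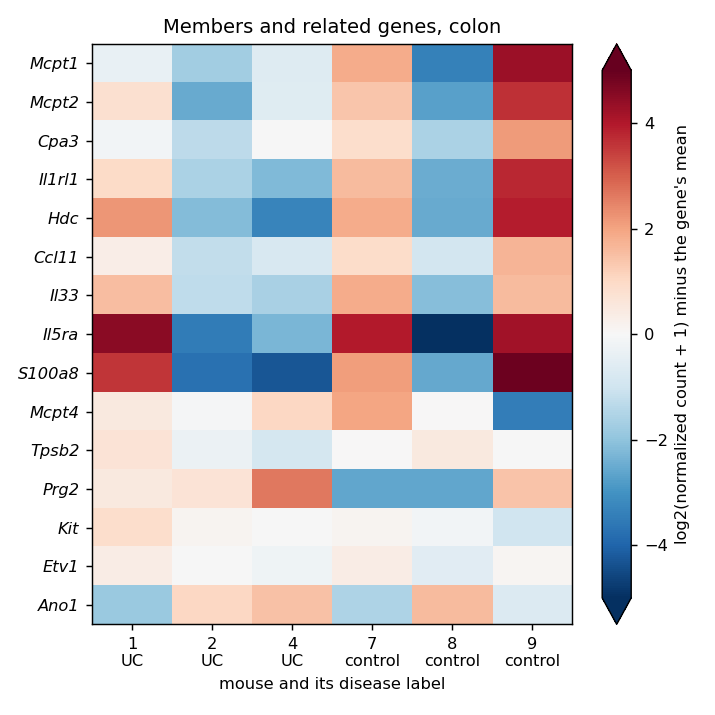
Colour shows log2(normalized count + 1) minus the mean of the gene over the 6 colon libraries, for members and related genes (rows) by mouse and disease label (columns), red above and blue below the mean, with colours saturated beyond 5. Mcpt1, Mcpt2, Cpa3, Il1rl1 and Hdc share a high value in mouse 9 and low values in mice 2 and 8, which Mcpt4, Tpsb2 and Kit do not show. Il1rl1 and Hdc are also low in mouse 4. S100a8, Ccl11, Il33 and Il5ra, drawn beside them, are high in mouse 9 and low in mice 2 and 8 too. The pattern is thus not particular to the mast cell genes. Tpsg1 and Cd63, which were lowest in mouse 9, and Ndst2, highest in mouse 2, are not drawn.

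Marker lists of other cells were read beside the Mcpt1 pattern. They did not share one order, but some of their genes had the order of Mcpt1. The 6 neutrophil genes summed to 58261 normalized counts in the colon of mouse 9 and to between 7405 and 32531 in the others. Ly6g gave most of that sum in mice 2, 4 and 8, with 7350, 16355 and 17455. S100a9 had 16.5, 31.3 and 129.8 in these mice and, like S100a8, was highest in mice 9, 1 and 7. The 5 monocyte and macrophage genes summed to between 3854 and 8340 in the libraries labelled UC. In mice 7, 8 and 9 they summed to 11491, 3532 and 12965. This sum had the order of Mcpt1, which was 9, 7, 1, 4, 2 and 8. Csf1r and Adgre1 had it too, whereas Ccr2 was lowest in mouse 2. T cell genes summed to between 234.3 and 749.2 in the first group and to between 194.1 and 1370 in the second. Their highest sum was in mouse 7. Cd4 and Trac had the order of Mcpt1, while Cd8a was highest in mouse 7. B cell genes had their highest sum in mouse 9, at 1792, and their lowest in mouse 1, at 88.1. Among red cell genes, Alas2 was lowest in the colon of mouse 9, at 447.2 normalized counts, while Slc4a1 was lowest in mouse 2, at 20.9, and Epb42 was highest in mouse 9, at 28.8. The part of the other cell types in the results was not tested.

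Genes whose colon values were most like those of Mcpt1 were listed by Pearson's r of log2(normalized count + 1) over the 6 libraries, among 22122 genes with a mean of at least 10. The first 5 were Gm10145 (r 0.995), Cd40 (0.992), Ripor2 (0.992), Arntl2 (0.991) and Gm15987 (0.988). Cpa3 was the 8th of the list (0.985) and Mcpt2 the 112th (0.959), whereas Mcpt4 had an r of -0.48 and Kit of -0.49. For Cpa3 the first 5 were Slirp (0.998), Arntl2 (0.991), Gm36107 (0.988), Cd52 (0.987) and Treml2 (0.986). With 6 libraries, 175 genes reached an r of 0.95 with Mcpt1, and libraries share depth and tissue composition, so these values are a description. Pearson's r also takes no account of the size of a change. Gm10145 ranged from 181.5 to 287.0 normalized counts, where Mcpt1 ranged from 3.78 to 958.3.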

How the data were processed

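Colon RNA was depleted of ribosomal RNA and blood RNA also of globin RNA. The authors trimmed the reads, mapped them to GRCm38 with STAR and quantified Ensembl genes with StringTie 1.3.4c. The deposited table of counts holds whole numbers derived from transcript coverage. The deposited normalized values are a signal scale on which the authors divided each count by 1 factor per library, from 0.664 to 1.31, separately for each tissue. Replicates are separate mice.

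The members and lists were chosen with earlier results of these data known. The text names all 10 members, S100a8, genes among the up to 3 of highest mean normalized count from each other list, though not every such gene is printed, and the 5 genes most like Mcpt1 and Cpa3. The same rule was set for Epx, and its result is not reported here. Cma1, Cd34, Epb42, Tpsab1, Cma2, Mcpt9, Ctsg, Mrgprb1, Mrgprb2, Camp, Ngp, Prg3, Ear1, Ear6, Il3, Il9 and Il13, Hdc and Il4 in the colon, and Alox15, Siglecf and Ly6g in the blood stand outside that rule and were chosen after their values were seen, as were the sums of lists.

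Tests used edgeR 4.0.16 under R 4.3.3 (TMM, filterByExpr, glmQLFit, glmQLFTest, Benjamini-Hochberg adjustment over all genes), each tissue alone, or all 12 libraries in 4 groups for tissue and interaction. SE was taken as the log2FC over the root of F. Alternatives were other scalings, filters, thresholds and gene sets, DESeq2 1.42.0, limma-voom (limma 3.58.1), 1 fit of all 12 libraries, the mouse number as a block, and each mouse left out. The steps were tested on simulated data.

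Mouse numbers pair colon and blood, since the study took both from the same animals. Deviations from group means correlated across 15802 genes with r from 0.00468 to 0.227 within the 6 pairs. Per-kilobase levels used GENCODE vM21 exon lengths. Of 112 list genes, 110 were found. Counting error alone limits the lowest values.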

Additional observations from a re-analysis of the deposited data

How the results depend on the processing

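The number of members called stayed within 1.5 times its value in 37 of 38 alternatives and in all 24 fits without 1 mouse. It was 0 for each disease-label comparison and for the interaction in all of these, and 5 to 7 for colon against blood without 1 mouse. The exception was colon against blood with only genes present in both deposited tables, where 3 members were called, because Mcpt1, Mcpt4 and Tpsb2 are absent from the blood table. With genes of either table, chosen after seeing the data, 6 were called. With mice as a replicate block, colon against blood called 6 members and the interaction 0, so the pairing changed no call. The bounds of colon over blood without 1 mouse were also chosen after seeing the data.

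Single members that turned in direction were never SDE in the main test, and the cause was not tested. In the colon, Mcpt4 was 1.63 with limma-voom and from -0.81 to 1.59 without 1 mouse, and Tpsb2 from -0.80 to 0.067. In the blood, Mcpt2 was -0.14 with library size only, -1.62 with limma-voom and from -0.89 to 0.78 without 1 mouse, Cpa3 from -1.47 to 0.28, Kit from -1.26 to 1.47 and Fcer1a from -1.62 to 0.27. In colon against blood, Cpa3 was 0.91 with library size only, and Prg2 ran from -5.04 (without mouse 9) to 0.85 (without mouse 7), fits in which a labelled control group is at 0 counts, so that neither value is read. In the interaction, Kit was 0.33 with library size only, 0.61 with limma-voom and 0.61 with the replicate block, and from -1.15 to 1.56 without 1 mouse. Without 1 mouse, Fcer1a ran from -0.22 to 1.69 and Ms4a2 from -3.08 to 0.34. The interaction values of Mcpt4 (1.15 with limma-voom, -0.82 to 1.57 without 1 mouse), Tpsb2 (-0.83 to 0.057) and Prg2 (-9.25 to 2.54) rest on groups at 0 counts and are not read either. Mcpt4 lost its call for colon over blood at an adjusted p of at most 0.01. With 3 mice per group and counts this low, a missing call does not show that the members were alike.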

Other observations

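Genes of mediator synthesis were read in both tissues. Of 7 such genes tested, 3 were SDE with higher levels in the colon and 4 with higher levels in the blood, against 37.7% and 20.8% of all genes tested. Tph1, the serotonin-making hydroxylase, had a median of 1714 normalized counts in the colon, Hpgds, a prostaglandin D synthase, had 989, and the cyclooxygenase Ptgs1 had 2333. In the blood, Alox5ap, which feeds leukotriene synthesis, had a median of 6473 normalized counts, Hdc had 3917, and Ptgs1 had 2430. Hpgds was highest in the colon of mice 4, 8 and 2, whereas Hdc was highest in that of mice 9, 1 and 7. Between the disease labels, 0 of the 7 genes tested in the colon and 0 of the 5 tested in the blood were SDE.

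The interleukin Il4, which basophils can make, had between 6.62 and 72.8 normalized counts in the 6 blood libraries, with its highest value in mouse 4. That library also had the most Fcer1a, Ms4a2 and Cd200r3, but not the most Mcpt8, which was highest in mouse 8, or Gata2, which was highest in mouse 1. In the colon it was counted in mouse 9 alone, at 5.40. In the blood its log2FC between labels was 1.17 (SE 0.678, adjusted p = 0.9998 by edgeR).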
